A study of Arabidopsis thaliana with 9 samples.

Results

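PCC1 (AT3G22231) and its relatives AT3G22235 and AT3G22240 stand in a row on chromosome 3 of Arabidopsis thaliana. These 3 genes, out of 21063 loci with at least 1 sense tag, were picked by locus name for the large difference of PCC1 between genotypes at 24 h. The PCC1 values at 24 h are for that reason given as a description, with no test. The data are EXPRSS Tag-seq libraries, in which oligo-dT primes the cDNA, ultrasound shears it, and 1 short tag near the poly(A) tail stands for 1 transcript. Leaves came from wild type plants of the ecotype Nossen (No-0) and from slh1, a mutant in the same ecotype with a changed RRS1 immune receptor. All plants were 4 weeks old and had grown at 28 °C under 10 h light and 14 h dark. They were sampled before (0 h, still at 28 °C) and 6, 9 and 24 h after a move to 21 °C, which took place when the light came on. Each of the 8 groups has 1 library, and the number of plants behind a library is not given in the sources used here.

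PCC1 stands for pathogen and circadian controlled 1. It encodes a short protein of the CYSTM family, whose members carry a cysteine-rich stretch at the end that anchors them in membranes. PCC1 is known to respond to salicylic acid (SA), the hormone of defence against biotrophic pathogens, and to the circadian clock. The roles of AT3G22235 and AT3G22240 are less well known, and RefSeq describes them as a cysteine-rich TM module stress tolerance protein and a PCC1-like protein.

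The row spans 19073 bases, chr3:7845823-7864895 of the TAIR10.1 assembly, and all 3 genes lie on the minus strand. PCC1 occupies chr3:7845823-7846833, AT3G22235 chr3:7854419-7855814 and AT3G22240 chr3:7863606-7864895. Between them RefSeq places 5 other loci, of which 4 are transcribed pseudogenes. Each gene has 3 exons and all 3 exons carry coding sequence. The coding lengths are 246, 216 and 219 bases, and the 3′ UTRs measure 257, 277 and 182 bases. The coding sequences follow in the reference (RefSeq, TAIR10.1, minus strand, exons joined), since the place where they agree decides which tags can be told apart. Capitals mark the 159 bases that are the same in all 3 after alignment with MAFFT.
PCC1, chr3:7846080-7846563: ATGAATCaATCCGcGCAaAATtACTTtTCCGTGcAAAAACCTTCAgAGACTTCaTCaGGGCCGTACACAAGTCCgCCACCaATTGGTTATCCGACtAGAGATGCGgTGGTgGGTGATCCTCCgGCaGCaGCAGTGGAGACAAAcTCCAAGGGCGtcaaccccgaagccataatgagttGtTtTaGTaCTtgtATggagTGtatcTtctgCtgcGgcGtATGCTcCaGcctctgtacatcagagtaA
AT3G22235, chr3:7854696-7855614: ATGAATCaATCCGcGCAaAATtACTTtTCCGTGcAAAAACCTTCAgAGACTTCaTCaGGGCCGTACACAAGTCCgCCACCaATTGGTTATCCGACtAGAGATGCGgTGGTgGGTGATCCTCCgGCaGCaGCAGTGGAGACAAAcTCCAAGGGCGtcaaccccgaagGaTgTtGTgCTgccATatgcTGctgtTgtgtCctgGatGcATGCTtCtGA
AT3G22240, chr3:7863788-7864675: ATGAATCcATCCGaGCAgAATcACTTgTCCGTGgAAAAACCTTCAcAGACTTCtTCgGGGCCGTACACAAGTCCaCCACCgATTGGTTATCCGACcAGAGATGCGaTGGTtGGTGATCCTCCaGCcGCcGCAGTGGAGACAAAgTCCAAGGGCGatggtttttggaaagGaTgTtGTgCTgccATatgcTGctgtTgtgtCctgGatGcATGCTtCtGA

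AT3G22235 joins a front like that of PCC1 to a back like that of AT3G22240. Its first 166 coding bases were identical to those of PCC1, and its last 53 were identical to those of AT3G22240. Over the aligned coding bases, AT3G22235 was 85.6% identical to PCC1 and 87.5% identical to AT3G22240, while PCC1 and AT3G22240 were 73.5% identical. In the last 300 bases of the mRNAs, where most EXPRSS tags are expected, the contrast was sharper. There PCC1 was 46.1% identical to AT3G22235 and 47.4% identical to AT3G22240 over the bases that aligned. AT3G22235 and AT3G22240 shared 205 of 205 aligned bases.

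The consequence for a 36-base tag was measured by sliding a window of that length along each gene and searching both strands of the genome. None of the 265 windows in the last 300 bases of the PCC1 mRNA had an exact copy elsewhere, and 12 had a copy with up to 2 mismatches. In AT3G22235 all 265 such windows had an exact copy. For 170 of them the copy lay in AT3G22240, and for 95 it lay within 95 bases beyond the annotated 3′ end of AT3G22240. In AT3G22240, 193 of the 230 windows that fit had an exact copy in AT3G22235. Over whole genes, 41.5% of the PCC1 windows had an exact copy elsewhere, all of them in AT3G22235 or directly before its start. A tag from the 3′ end of PCC1 can therefore be assigned to it alone, whereas most 3′ tags of AT3G22235 and AT3G22240 cannot be told apart. The search used the reference genome, and No-0 may differ from it at single bases.

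**Figure D1:**
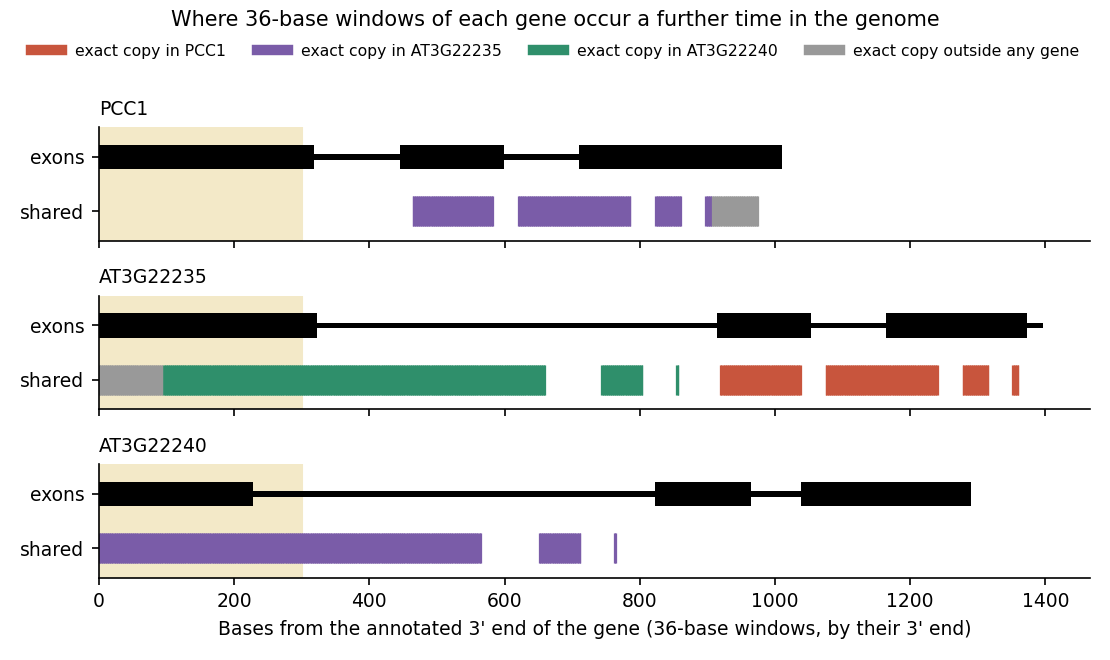
Exons (black boxes) and 36-base windows with an exact copy elsewhere (coloured) along each of the 3 genes, by distance in bases from the annotated 3′ end, with the last 300 bases of the gene shaded. The shaded part is free of copies in PCC1 and filled with copies in AT3G22235, where 265 of 265 windows of the last 300 mRNA bases were shared.

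The levels below are sense tags scaled to 1000000 sense tags per library (TPM), with exact 95% Poisson intervals that cover counting error only. The libraries held 227021 to 573997 tags on both strands, and those of slh1 at 0 h and 24 h were the smallest. A single tag was worth 1.99 to 4.98 TPM. For a gene with no tag in a library, 3 tags are given as a rough limit, which is 5.96 to 15.0 TPM. The exact Poisson upper limit for 0 tags is higher, from 7.33 TPM in No-0 at 24 h to 18.4 TPM in slh1 at 0 h. Levels were not scaled by length, since the method is designed to give 1 tag per transcript. Different genes can be compared only roughly, since libraries were amplified by PCR and tags that fit several genes were split. The 4 leaf marker genes together reached 25977 to 40401 TPM, and the 2 flower markers together 0 to 12.7 TPM.

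PCC1 was an abundant leaf transcript. Its 1043.83 sense tags made up 99.2% of the tags of the 3 genes, and by mean tags it ranked 335th among all loci. In No-0 it had 61 tags at 0 h, 168 TPM (129 to 216), and 78 tags at 6 h, 248 TPM (196 to 310). At 9 h it had 248.83 tags, 684 TPM (602 to 775). At 24 h only 8 tags were left, 15.9 TPM (6.86 to 31.3). The wild type thus peaked at 9 h and was lowest at 24 h.

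In slh1 PCC1 began with 95.5 tags at 0 h, 476 TPM (388 to 584). It had 57 tags at 6 h, 145 TPM (110 to 187), and 255 tags at 9 h, 635 TPM (559 to 718). At 24 h it had 240.5 tags, 1170 TPM (1029 to 1330), the highest level of the 8 libraries. The order of the 8 levels ran from No-0 at 24 h over slh1 at 6 h, No-0 at 0 h, No-0 at 6 h, slh1 at 0 h, slh1 at 9 h and No-0 at 9 h to slh1 at 24 h. Neighbours in this order had overlapping intervals except at 3 steps. These were the step up from No-0 at 24 h, the step from No-0 at 6 h to slh1 at 0 h, and the step from No-0 at 9 h to slh1 at 24 h.

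**Figure D2:**
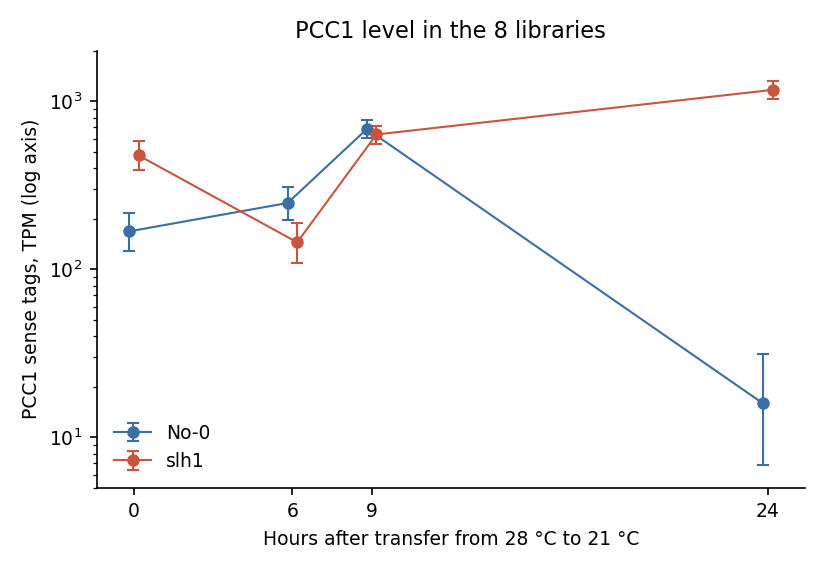
PCC1 sense level in TPM (log axis) against hours after the move to 21 °C, with 1 library per point, No-0 in blue, slh1 in red and exact 95% Poisson intervals as bars. The genotypes lie together at 9 h, at 684 and 635 TPM, and far apart at 24 h, at 15.9 and 1170 TPM.

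At 24 h PCC1 was 73.6-fold higher in slh1 than in No-0, with an exact 95% Clopper-Pearson interval of 36.8 to 173-fold. This is the contrast for which the genes were chosen. On log2(TPM + 5), a scale that understates the change of low genes, 5.15% of the loci with a tag in either library were at least 4-fold apart, and 2.02% were at least 4-fold higher in slh1. PCC1 stood second from the top in that order. The smaller slh1 library makes each tag there worth more, at 4.86 TPM against 1.99 TPM in No-0.

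At the earlier time points the genotypes did not differ in 1 direction. At 0 h PCC1 was 2.83-fold higher in slh1 (interval 2.04 to 3.99), at 6 h it was 1.72-fold lower (1.20 to 2.46), and at 9 h the log2 ratio was −0.11 (−0.37 to 0.15). The shares of loci at least 4-fold apart at these times were 5.38%, 4.41% and 2.88%, and PCC1 was not among them at any of the 3. These 6 libraries were not used to choose the genes. An edgeR quasi-likelihood fit over them had genotype and time as terms. It gave PCC1 a genotype difference of 0.05 ± 0.30 (log2, SE, against an SE of 0.68 with DESeq2), with an adjusted p of 0.985 by edgeR. In that fit 2 of 4199 genes passed the adjusted threshold of 0.05, which is 0.0476%, and 284 had an unadjusted p under 0.05. The sign of the PCC1 difference turned without the 0 h pair, when it was −0.56. Without the 6 h pair it was 0.52, and without the 9 h pair 0.24.

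PCC1 rose from 6 h to 9 h in the fit common to both genotypes. It was 2.76-fold higher at 9 h in No-0 (2.13 to 3.61) and 4.39-fold higher in slh1 (3.28 to 5.95). The fitted change was 1.64 ± 0.36 on the log2 scale, with an adjusted p of 0.0143 by edgeR. This made PCC1 one of the 19 genes that rose, 0.452% of those tested, while 65 genes or 1.55% changed in either direction. In the single libraries of slh1, 1.22% of loci were at least 4-fold higher at 9 h than at 6 h, and PCC1 was among them. The call was lost with DESeq2, where the SE was 0.83 and the adjusted p 0.663. It was also lost when sense and antisense tags were added, with an adjusted p of 0.0539.

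The other early changes of PCC1 did not pass the test. From 0 h to 6 h the fit gave −0.70 ± 0.38 (log2, SE, adjusted p 0.309 by edgeR), a comparison in which 7.60% of genes passed. Behind this average the single libraries went opposite ways, since PCC1 at 6 h was 1.48-fold higher than at 0 h in No-0 (1.04 to 2.10) and 3.29-fold lower in slh1 (2.36 to 4.67). From 0 h to 9 h the fit gave 0.95 ± 0.36 (adjusted p 0.0814 by edgeR), a comparison in which 14.0% of genes passed. The latter change passed in 5 of the 9 alternatives tried. In the single libraries PCC1 was 4.07-fold higher at 9 h in No-0 and 1.33-fold higher in slh1.

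From 9 h to 24 h the genotypes parted. In No-0 PCC1 was 43.1-fold lower at 24 h than at 9 h (21.5 to 101), and 4 loci were lower still on log2(TPM + 5). At least 4-fold lower were 2.00% of loci. Against 0 h it was 10.6-fold lower (5.05 to 25.6), and 3.12% of loci were at least 4-fold lower. In slh1 PCC1 was 1.84-fold higher at 24 h than at 9 h (1.54 to 2.21) and 2.46-fold higher than at 0 h (1.93 to 3.14). With 1 library per group these differences have no replicate check.

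**Figure D3:**
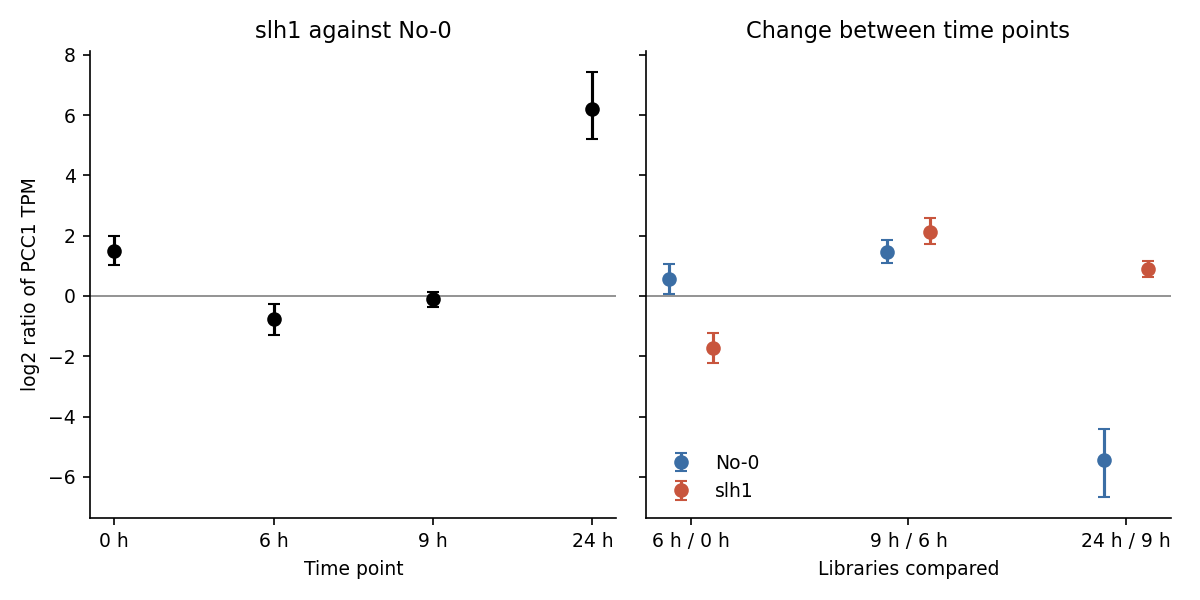
Log2 ratios of the PCC1 level between pairs of single libraries, slh1 against No-0 at each time point on the left and successive time points within No-0 (blue) and slh1 (red) on the right, with exact 95% Clopper-Pearson intervals as bars. The ratio at 24 h lies at 6.20, and the step from 24 h over 9 h lies at −5.43 in No-0 and 0.88 in slh1.

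AT3G22235 was barely detected. Its sense tags in No-0 numbered 0, 0.5, 1.5 and 0 at 0, 6, 9 and 24 h, and in slh1 they numbered 0, 1, 1 and 2. The highest level was 9.73 TPM, in slh1 at 24 h. AT3G22240 had 0.5 tags in No-0 at 6 h, 1 tag each in slh1 at 6 h and 9 h, and none in the other 5 libraries. Both genes stayed at or below 3 tags in every library, so that no difference between genotypes or times was detectable at this depth.

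The fractions in these counts show where tags were shared. A tag that fits several genes was split equally among them, so that a count that is not whole contains at least 1 shared tag. In No-0 at 6 h AT3G22235 and AT3G22240 each held 0.5, the pattern of a single tag split between them. In slh1 at 6 h and at 9 h both held 1. PCC1 was fractional in 3 of the 8 libraries, at 0.83 of a tag in No-0 at 9 h and 0.5 of a tag in slh1 at 0 h and at 24 h. In slh1 at 0 h both relatives were at 0 sense tags, so that the other share of that tag is in the sense count of neither. Adding the 3 genes together, which no split among them can change, gave a ratio of 74.2 at 24 h in place of 73.6. PCC1 was 96.6% to 100% of that sum in every library.

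Tags on the opposite strand were few for PCC1 but outnumbered sense tags for AT3G22235. PCC1 had 61.25 antisense tags in all, 5.54% of its tags on both strands, against 11.4% over all loci. They numbered 5, 1.5, 14.75 and 0 in No-0 at 0, 6, 9 and 24 h, and 9, 1, 15 and 15 in slh1. The libraries with many sense tags thus also held most antisense tags. AT3G22235 had 18.75 antisense tags against 6 sense tags, at 4, 0.5, 2.75 and 0 in No-0 and 4, 0, 4.5 and 3 in slh1. Antisense counts were fractional in 2 libraries for PCC1 and in 3 for AT3G22235, so that some of these tags were shared. Over the whole gene, 336 of the 1361 windows of AT3G22235 had an exact copy in PCC1. Which of the 2 genes the antisense tags came from was not tested. No antisense tag fell on AT3G22240. The antisense strand carries a run of 13 A within PCC1, 14 A within AT3G22235 and 8 A within AT3G22240. Whether oligo-dT primed at such runs was not tested.

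**Figure D4:**
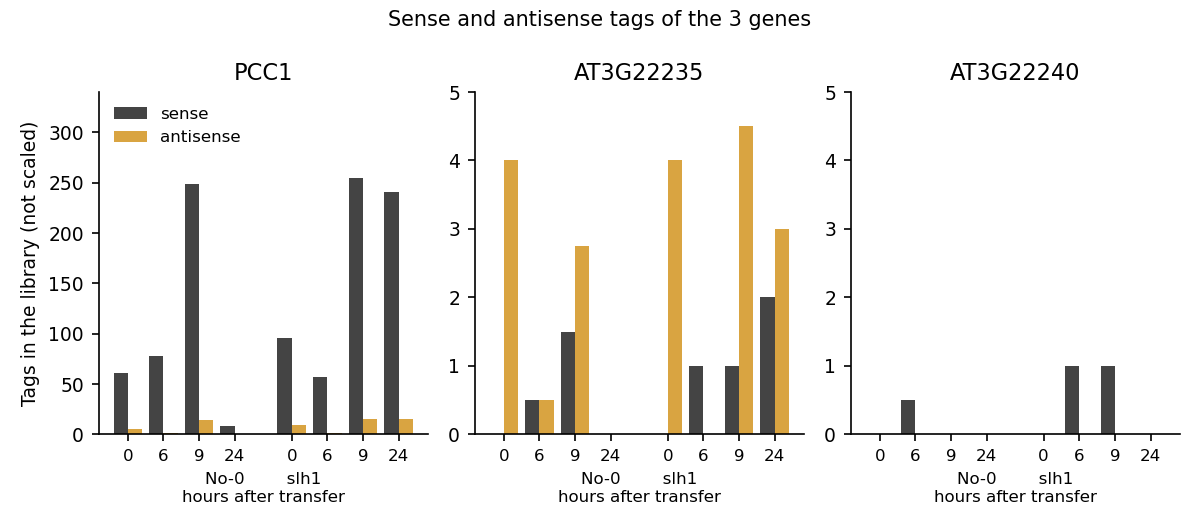
Sense (dark) and antisense (yellow) tags of the 3 genes in each library, not scaled to library size, by genotype and hours after the move to 21 °C. The vertical axis differs between panels, reaching 255 tags for PCC1 and 4.5 tags for AT3G22235.

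The start of PCC1 was examined for short motifs, since genes of SA signalling and of the clock often carry them there. The 250 bases before the annotated start (RefSeq, TAIR10.1, minus strand) are given with matches in capitals for PCC1 and AT3G22235.
PCC1, chr3:7846834-7847083: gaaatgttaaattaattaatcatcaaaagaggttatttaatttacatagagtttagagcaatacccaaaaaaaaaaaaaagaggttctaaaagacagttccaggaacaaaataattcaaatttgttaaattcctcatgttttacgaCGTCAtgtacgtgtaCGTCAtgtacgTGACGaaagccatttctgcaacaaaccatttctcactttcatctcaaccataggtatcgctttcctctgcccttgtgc
AT3G22235, chr3:7855815-7856064: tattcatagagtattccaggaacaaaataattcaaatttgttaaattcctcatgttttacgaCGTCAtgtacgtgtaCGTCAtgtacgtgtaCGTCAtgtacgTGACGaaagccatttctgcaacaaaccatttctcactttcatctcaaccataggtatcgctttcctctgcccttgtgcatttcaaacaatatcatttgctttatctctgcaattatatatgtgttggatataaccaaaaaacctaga

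The capitals mark TGACG, the core of sites for TGA factors, found on either strand. PCC1 had 3 matches, AT3G22235 had 4 and AT3G22240 had none. Of 27443 promoters of the same length, 18.6% held at least 1. The W-box core TTGAC, which can overlap TGACG, was in none of the 3 promoters and in 44.9% of all. The G-box CACGTG (6.49% of all), the evening element AAAATATCT (2.36%) and the CCA1 site AAAAATCT (6.69%) were absent from these 3 windows as well. PCC1 and AT3G22235 shared a run of 219 identical bases, from −375 to −157 counted from the A of the PCC1 start codon. The run crosses the annotated start of both genes, so that only part of it lies in these windows. A match is a description of letters, and factor binding was not measured.

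Most SA immunity genes were higher in slh1 at 24 h, as PCC1 was. The list was drawn up with earlier results of these data known, so that its shares are a description and no independent support. Of the 24 genes of that list 22 had a tag at 24 h, of which 21 were higher in slh1 and 13 were at least 4-fold higher on log2(TPM + 5). Over all loci with a tag at 24 h these shares were 38.2% and 2.02%. A gene with no tag in No-0 at 24 h entered these counts through slh1 alone and could only be higher. PBS3, NIMIN1, WRKY54, AT5G03350, SARD1, FMO1 and PNP-A were such genes. A minimum of 2 tags on average over all 8 libraries left 16 genes, 15 of them higher and 10 at least 4-fold higher, but 4 of the 16 passed it through their 24 h tags alone. With the minimum taken over the 0, 6 and 9 h libraries, a choice made after these values were seen, 12 genes were left. Of these, 11 were higher and 7 at least 4-fold higher, against 38.2% and 1.42% of 11209 loci. Their median difference was 2.44, against −0.22 over those loci. PR1, the usual marker of SA responses, and ALD1, an enzyme of pipecolic acid synthesis, had no tag.

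The 4 most abundant genes of this list were ACD6, LURP1, AT5G03350 and ECS1. LURP1, which is needed for resistance to downy mildew, passed the test from 6 h to 9 h as PCC1 did. Its wild type levels were 11.0, 41.4, 212 and 7.95 TPM at 0, 6, 9 and 24 h, those of the mutant 39.9, 52.0, 269 and 654 TPM. It rose from 6 h to 9 h by 2.26 ± 0.41 (log2, SE, adjusted p 0.00242 by edgeR). Of the 3 list genes in the fit, 1 rose in that comparison, as did 0.452% of all genes tested. From 0 h to 9 h, where PCC1 did not pass, 2 of the 3 rose, LURP1 and ECS1, as did 7.17% of all genes tested. ACD6, an ankyrin protein that promotes SA signalling, stood at 138, 79.5, 135 and 13.9 TPM in the wild type against 342, 128, 180 and 297 TPM in the mutant. It fell from 0 h to 6 h by 1.20 ± 0.34 on the log2 scale (adjusted p 0.0310 by edgeR).

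ECS1, a cell wall protein, went through 2.76, 15.9, 114 and 3.97 TPM in the wild type and through 29.9, 30.5, 85.5 and 219 TPM in the mutant. AT5G03350, a lectin gene that SA induces, was listed with 55.0 TPM at 9 h and with no tag at 24 h in the wild type, where 3 tags would be 5.96 TPM. Its mutant levels at those times were 47.3 and 418 TPM. These genes and PCC1 thus had like levels in the genotypes at 9 h and a wide gap at 24 h. Of the 3 list genes in the edgeR fit, 0 passed for genotype at 0, 6 and 9 h, and the adjusted p ranged from 0.624 to 0.940. Over all genes tested 0.0476% passed, so that this count says little about the list.

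The clock genes shared no single course. GRP7, an RNA-binding protein under clock control, ran through 1610, 2456, 7850 and 171 TPM in the wild type at 0, 6, 9 and 24 h. The mutant levels were 2398, 2287, 6996 and 156 TPM. It rose from 6 h to 9 h by 1.55 ± 0.23 (log2, SE, adjusted p 6.49e-04 by edgeR). ELF4, a part of the evening complex, went from 79.5 TPM at 6 h over 319 to 5.96 TPM at 24 h in the wild type. In the mutant it went from 76.2 over 393 to 0 TPM. It rose from 6 h to 9 h by 2.10 ± 0.32 (adjusted p 6.49e-04 by edgeR). PCC1 in No-0 thus had its highest and lowest levels at the same times as GRP7 and ELF4, and PCC1 in slh1 did not.

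The morning gene LHY had no tag at 0 h in either genotype, whereas its 24 h levels were 308 TPM (wild type) and 306 TPM (mutant). The libraries of 0 h and 24 h therefore differed in a clock gene, although a full day lay between them. LUX, which works with ELF4, reached 64.0 TPM in the wild type and 27.2 TPM in the mutant at 24 h. All 14 clock genes had a tag at 24 h, where 4 were higher and 10 lower in slh1, while 61.8% of all loci were lower. Their median difference was −0.56 on log2(TPM + 5), against −0.38 over all loci with a tag at 24 h. On that scale 0 were at least 4-fold higher and 1 at least 4-fold lower, against 348 and 540 of 17245 loci. The latter was CCA1, named after its values were seen, at 49.7 TPM (wild type) and 4.86 TPM (mutant). At 9 h, 2 of the 13 clock genes averaging 2 tags or more were at least 4-fold higher in slh1. Of all loci with a tag at 9 h, 2.88% were at least 4-fold apart. Of the 6 clock genes in the edgeR fit, GRP7 and ELF4 rose from 6 h to 9 h, as did 0.452% of all genes tested, and none fell. Both also rose from 0 h to 9 h, as did 7.17% of all genes tested. PRR7, a repressor of morning genes that is named after its values were seen, fell by 3.18 ± 0.747 over that time (log2, SE, adjusted p 0.00536 by edgeR). What part the time of day had in the changes of PCC1 was not tested.

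Other CYSTM genes were higher or lower in slh1 at 24 h in shares near those of all loci. Of 11 family members outside the row, 9 had a tag and 6 had a tag at 24 h. Of these 6, 2 were higher and 4 lower in slh1 at 24 h, while 38.2% of all loci with a tag at 24 h were higher and 61.8% lower. Their median difference was −0.08, against −0.38 over those loci. The 2 most abundant, AT2G41420 (WIH2) and AT5G67600 (WIH1), are known for a role in the formation of the germ line in ovules. The wild type levels of WIH2 at 0, 6, 9 and 24 h were 44.1, 105, 154 and 199 TPM, and its mutant levels were 15.0, 127, 119 and 131 TPM. At 24 h WIH1 reached 203 TPM in the wild type and 160 TPM in the mutant.

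Of the 4 family members in the edgeR fit, 2 rose from 0 h to 6 h, and both had also risen at 9 h. Over all genes tested, 3.95% rose from 0 h to 6 h and 7.17% from 0 h to 9 h. The 2 family members were WIH2, by 1.85 ± 0.475 and 1.97 ± 0.465 (log2, SE, adjusted p 0.0171 and 0.00575 by edgeR), and AT4G33660, by 1.63 ± 0.483 and 1.80 ± 0.475 (adjusted p 0.0395 and 0.0125). The 24 h levels of AT5G04080 were 39.7 TPM (wild type) and 38.9 TPM (mutant). At 24 h the family member AT1G56060, named after its values were seen, had no tag in No-0 and 7 tags, 34.0 TPM, in slh1.

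The chromosomal neighbours of the row had no such gap at 24 h or too few tags to show one. Of the 3 loci on either side, AT3G22230, which encodes ribosomal protein L27e and lies next to PCC1, was the sole one with many tags. At 24 h it reached 278 TPM in the wild type and 384 TPM in the mutant, a log2 ratio of 0.47 (0.05 to 0.87). It rose from 0 h to 6 h by 0.98 ± 0.28 (log2, SE, adjusted p 0.0335 by edgeR) and from 0 h to 9 h by 1.34 ± 0.28 (adjusted p 0.00180). The other 5 neighbours had 0 to 29 tags over the 8 libraries together, and the 5 loci between the members had 1 tag in all.

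The genes whose levels ran most like those of PCC1 were sought among 2114 genes averaging 20 tags or more, by Pearson r of log2(TPM + 5) over the 8 libraries. The closest was TIR (AT1G72930), which encodes a protein with a Toll/interleukin-1 receptor domain, with r = 0.951. Its wild type levels at 0, 6, 9 and 24 h were 248, 293, 478 and 76.5 TPM, and its mutant levels were 434, 341, 525 and 1318 TPM. Next came AT5G42530 (r = 0.905), AT2G25510 (r = 0.902), ACD6 (r = 0.885) and AT1G27330 (r = 0.855). At 24 h AT5G42530 reached 725 TPM in the wild type and 6106 TPM in the mutant, and AT2G25510 reached 215 and 1717 TPM. The r of LURP1 was 0.842, that of GRP7 0.384 and that of LHY −0.338, while the median over all genes was −0.03. These values describe 8 points from the same 8 libraries, and the 24 h libraries weigh heavily in them.

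**Figure D5:**
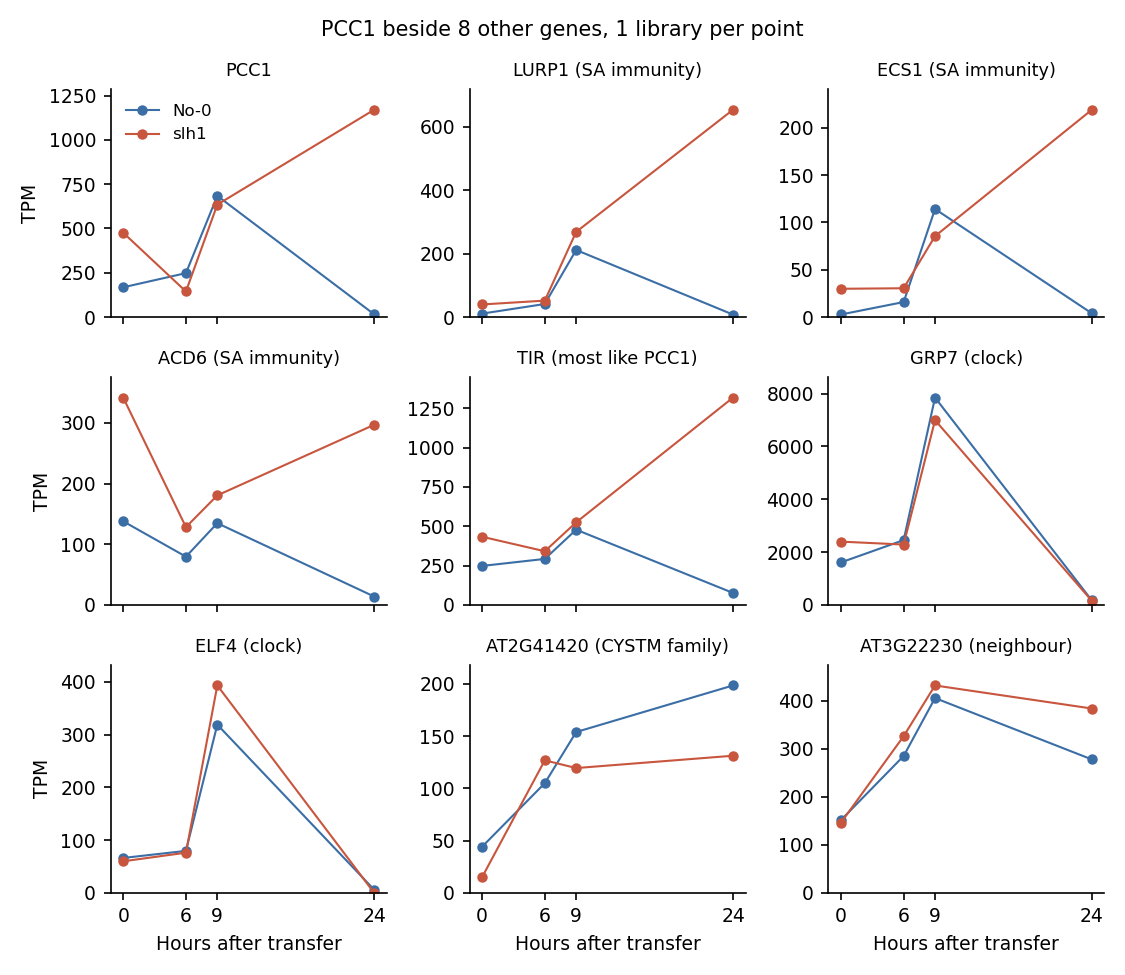
Levels in TPM (axes from 0, scaled per panel) of PCC1 and 8 other genes against hours after the move to 21 °C, with 1 library per point, No-0 in blue and slh1 in red. PCC1, LURP1, ECS1, ACD6 and TIR are apart at 24 h, whereas GRP7 is at 171 and 156 TPM there.

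A root marker also moved with time. PYK10, an abundant root enzyme, had no tag at 0 h in either genotype and 44.0 to 94.6 TPM at 6 and 9 h. Its 24 h levels were 49.7 TPM (wild type) and 2.43 TPM (mutant), while the root marker BGLU21 was at 0 in all 8 libraries and BGLU22 had 1.5 and 1 tags in the 6 h libraries alone. The part of tissue makeup in the changes of PCC1 was not tested. In whole leaves, fewer cells that express a gene and less RNA per cell cannot be told apart.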

How the data were processed

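The authors deposited 1 table per library of expected counts of tags per locus, not scaled to depth. Per the methods of the study, reads were cut to 36 bases, filtered by quality, sorted by perfect barcode and aligned to TAIR10. The submitters' processing notes name Bowtie 0.12.8, Novoalign 2.08.03 and R 2.15.3, and the methods name BWA for paired reads, so the aligner behind the counts is uncertain. Tags fitting up to 10 places were split equally, and 10.6% to 12.6% of rows per library were fractional (tolerance 1e-06). Prefixed rows were read as antisense, which the files do not state. No molecular identifiers were used, so intervals cover counting error only.

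Counts of the 6 libraries of 0, 6 and 9 h were rounded and fitted with edgeR 4.0.16 in R 4.3.3 (quasi-likelihood F test, TMM, filterByExpr by genotype, terms for genotype and time, 2 residual degrees of freedom, Benjamini-Hochberg over 4199 genes, threshold 0.05). Its error is the variation of 1 term over the levels of the other, drawn for each gene towards that of all genes. The SE and p of a gene therefore do not measure the spread of that gene alone. For PCC1 the SE by edgeR was 0.30 for genotype and 0.36 from 6 h to 9 h. With DESeq2 these were 0.68 and 0.83. Each SE given with edgeR was derived as the absolute log2 change divided by the square root of F. It is therefore approximate, and least reliable for changes near 0. The 24 h libraries were left out because they chose the genes, and the baySeq test of the study needs replicates. Alternatives used DESeq2 1.42.0 and limma 3.58.1 (voom). Single libraries were compared by ratio with exact intervals (scipy 1.17.1), with fractions rounded to whole tags for the interval, and by 4-fold differences on log2(TPM + 5). Coding sequences were aligned with MAFFT 7.526.

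Positions are those of TAIR10.1, and 98.5% of sense loci matched its annotation by name. Lists were described over genes with a tag at 24 h, over genes that averaged 2 tags or more, and, added after the data were seen, over genes that averaged 2 tags or more at 0, 6 and 9 h. Named were the 3 members, the 4 most abundant genes of each list, the 3 loci on either side of the row and the 5 genes most like PCC1 by r. The members, lists and tests were chosen with earlier results of these data known. One further sample, of reads with no barcode, is in no group and was not used.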

Additional observations from a re-analysis of the deposited data

Results flagged for a closer look

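PCC1 changed in opposite directions in the genotypes in 3 pairs of time points, with intervals that cover counting error only and exclude 0 in both. These differences between genotypes were not tested, since each group has 1 library. From 0 h to 6 h the log2 change was 0.56 in No-0 and −1.72 in slh1, a difference of −2.28. From 9 h to 24 h it was −5.43 and 0.88, a difference of 6.31. From 0 h to 24 h it was −3.40 and 1.297, a difference of 4.70.

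The same was seen, also untested, in other genes named in the report. From 9 h to 24 h the log2 change in slh1 minus that in No-0 was 3.99 for ACD6, 6.02 for LURP1, 6.20 for ECS1, 3.97 for TIR, 3.63 for AT5G42530 and 2.83 for AT2G25510. From 0 h to 24 h it was 3.30 for TIR, 1.88 for AT5G42530 and 1.32 for AT2G25510. From 0 h to 6 h it was −1.44 for AT5G42530 and −1.27 for AT2G25510, and from 0 h to 9 h it was −1.75 for AT5G42530. ACD6, TIR, AT5G42530 and AT2G25510 are among the genes named for their likeness to PCC1, so that their agreement with it is not a separate result.

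Antisense tags, which the levels and tests of the report left out except where they were added to sense tags as an alternative, were above the limit of 3 tags per library in 5 libraries for PCC1 (61.25 tags in all) and in 3 libraries for AT3G22235 (18.75 tags in all).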

How the results depend on the processing

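The labels carry no replicate numbers, so that no replicate block could be fitted, but the terms for genotype and time already compare the genotypes within each of the 3 time points. The 44 recomputed PCC1 ratios between single libraries were those of the genotypes at 24 h and of time points within a genotype. All kept their sign and stayed inside the counting interval, moving by at most 0.28 (log2). The genotype ratios at 0, 6 and 9 h were not among them. As log2 differences with a pseudocount, these ranged from 1.244 to 1.496, −0.929 to −0.703 and −0.255 to −0.087 over 7 settings. The PCC1 genotype difference at 0, 6 and 9 h was −0.034 with no low-count filter and ranged from −0.56 to 0.52 when 1 pair of libraries was left out. Its rise from 6 h to 9 h was 1.62 with DESeq2 and 1.71 with sense and antisense tags together, both past the threshold no more. Its change from 0 h to 9 h passed with total sense tags (1.12), no filter (1.13), a mean of at least 20 tags (0.85), limma-voom (1.16) and counts rounded down (0.94). Genes past the threshold for genotype numbered 2, against 20 with no filter, 12 with a mean of at least 20 tags, 6 with DESeq2, 28 with limma-voom, 14 with counts rounded down, and 1 to 26 when a pair was left out. DESeq2 called 146 genes in place of 319 for 6 h against 0 h, 295 in place of 587 for 9 h against 0 h, and 41 in place of 65 for 9 h against 6 h, where limma-voom called 103. The causes were not tested. The number of genes at least 4-fold apart depended on the pseudocount. At 24 h between genotypes it was 888, against 5368 with 1 TPM and 44 with 20 TPM, and PCC1 was past 4-fold in all 7 settings. Of the 5 genes most like PCC1, 4 remained by Spearman rho and 1 with a mean of at least 5 tags. Depth limits AT3G22235 and AT3G22240, which stayed at or below 3 sense tags per library.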
